A study of Mus musculus with 3 samples.

Results

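Smooth muscle cells of mouse arteries that carried Sfrp2 transcripts are described here, first against smooth muscle cells without them and then between sunitinib and vehicle. They were chosen cell by cell from unique molecular identifiers (UMIs), each of which marks 1 captured transcript. A cell had to hold at least 500 UMIs, at least 300 genes and at most 15% mitochondrial UMIs. The contractile genes Acta2, Tagln, Myh11 and Cnn1 had to give at least 1% of its UMIs, Rgs5 had to stay under 5 per 10000 UMIs, and at least 3 Sfrp2 UMIs were required. This gave 578 of 3363 smooth muscle cells, namely 199 in the sunitinib library and 379 in the vehicle library, out of 4148 and 3947 cells kept. They are called Sfrp2 cells below, and the 1204 and 805 smooth muscle cells with 0 Sfrp2 UMIs in the same libraries are called Sfrp2-0 cells. Sfrp2, the contractile genes, Rgs5, mitochondrial share and depth chose the cells, so their values describe the choice and carry no finding.

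The cells came from digested arteries of wild-type mice and were captured for 3' single-cell RNA sequencing after 3 weeks. The library titled TKI was taken as the sunitinib group and the one titled Control as the vehicle group, from the treatments that the series lists. A library of sunitinib with Yoda1 also exists, with 60 smooth muscle cells by the same rule, and was left out of the comparisons. Sunitinib inhibits receptor tyrosine kinases, among them the PDGF and VEGF receptors, and Yoda1 is a chemical opener of the ion channel PIEZO1. Each group was 1 library, so no difference here has a replicate check and treatment cannot be told apart from mouse, digestion, capture or sequencing run. The labels do not give the age, sex or number of mice, the dose, or which arteries were taken. Every interval below is a 95% interval for counting error only: exact binomial (Clopper-Pearson) for a share of cells and exact conditional binomial for a ratio of UMI sums.

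SFRP2 is a secreted protein with a frizzled-like cysteine-rich domain that binds Wnt ligands outside the cell and changes how they reach their receptors. It is made by mesenchymal cells and fibroblasts in many tissues and is best known in wound repair and matrix formation. Vascular smooth muscle cells arise from different embryonic sources along the arterial tree. Adult cells keep part of that origin in their Hox genes, whose order along each cluster follows the body axis, and in factors such as HAND2, which acts in the cardiac outflow tract and branchial arches.

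The promoter of Sfrp2 is shown because that gene defines the cells, and the promoter of Hand2 because it was the most widely detected transcription factor gene among the 12 genes highest in them. Both windows are from RefSeq on GRCm38.p6, run from 250 bases before to 50 bases after the annotated start, and lie on the plus strand, at chr3:83766071-83766370 for Sfrp2 and chr8:57320733-57321032 for Hand2. Capitals mark matches, on either strand, to CANNTG (the E-box bound by HAND2 and other basic helix-loop-helix factors) or TAATTA (a homeodomain motif).
Sfrp2: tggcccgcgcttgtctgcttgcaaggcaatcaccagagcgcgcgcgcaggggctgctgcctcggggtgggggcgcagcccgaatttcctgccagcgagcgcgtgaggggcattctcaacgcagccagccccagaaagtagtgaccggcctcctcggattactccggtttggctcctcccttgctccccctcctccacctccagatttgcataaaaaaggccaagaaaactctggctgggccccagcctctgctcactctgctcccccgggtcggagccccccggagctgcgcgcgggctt
Hand2: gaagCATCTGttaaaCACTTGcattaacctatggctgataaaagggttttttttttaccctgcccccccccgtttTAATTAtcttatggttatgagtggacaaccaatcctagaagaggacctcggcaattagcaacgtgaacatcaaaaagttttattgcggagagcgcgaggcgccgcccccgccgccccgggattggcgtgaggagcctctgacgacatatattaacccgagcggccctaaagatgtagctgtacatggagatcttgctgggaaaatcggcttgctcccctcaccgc
The Hand2 window held 2 CANNTG matches and 1 TAATTA match, and the Sfrp2 window held 0 of either. Neither window held TATAAA or the TCF/LEF motif ATCAAAG. Of 32851 mouse promoter windows of this length, 72.3% held CANNTG, 5.29% held TAATTA, 13.6% held TATAAA and 3.73% held ATCAAAG, and no overlap between these motifs was removed. These matches are letters in a window, and no binding was measured.

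The number of smooth muscle cells fell with rising Sfrp2 UMIs, with no gap at the limit of 3. At so few UMIs per cell, these counts cannot tell a continuous range from a separate group of cells. Of the smooth muscle cells, 20.6% (18.7 to 22.5) in the sunitinib library and 25.9% (23.7 to 28.1) in the vehicle library held 1 or 2 Sfrp2 UMIs. Just outside the limit, 127 sunitinib and 164 vehicle cells held 2, and just inside it 71 sunitinib and 125 vehicle cells held 3. The median Sfrp2 cell held 4 Sfrp2 UMIs in the sunitinib library and 5 in the vehicle library, and the highest held 92 and 82.

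A smaller share of smooth muscle cells were Sfrp2 cells after sunitinib. The share was 11.3% (9.83 to 12.8) in the sunitinib library, against 23.7% (21.7 to 25.9) in the vehicle library. Their whole smooth muscle population had 60.3 Sfrp2 CPM (UMIs of the gene scaled to 1000000 UMIs of the summed cells) in the sunitinib library and 107 CPM in the vehicle library, a log2 ratio of -0.83 (-0.91 to -0.74). The same order was found in smooth muscle cells with Rgs5 at or above the limit, which the rule leaves out: 10.5% (9.21 to 11.9) of 2138 sunitinib cells and 19.4% (17.8 to 21.2) of 2137 vehicle cells held 3 or more Sfrp2 UMIs.

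Depth bears on such a limit, because a deeper cell reaches 3 UMIs more easily. The median Sfrp2 cell held 19500 UMIs in the sunitinib library and 19462 in the vehicle library, against 15422 and 15924 in Sfrp2-0 cells. With every cell thinned to 5000 UMIs, which left out 177 sunitinib and 43 vehicle cells, 2.14% (1.49 to 2.98) of sunitinib and 5.41% (4.33 to 6.65) of vehicle smooth muscle cells still held 3 or more. With 1 or more, the thinned shares were 17.7% (15.9 to 19.7) and 26.3% (24.1 to 28.6). The sunitinib library stood lower on each of these measures.

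Endothelial cells did not give a clean zero level for free RNA. At the same 5000 UMIs, 16.1% (9.98 to 24.0) of 118 sunitinib and 10.9% (5.77 to 18.3) of 110 vehicle endothelial cells held an Sfrp2 UMI. In the sunitinib library that share overlaps the one in smooth muscle, and in the vehicle library it lies below it. At the limit of 3 UMIs, the thinned endothelial shares were 6.78% (2.97 to 12.9) for sunitinib and 4.55% (1.49 to 10.3) for vehicle. The smooth muscle shares were 2.14% (1.49 to 2.98) and 5.41% (4.33 to 6.65). By that measure smooth muscle was not above endothelial cells beyond counting error in either library. In the sunitinib library its share was the lower one, with intervals that barely overlap. Without thinning, 9.23% of 195 sunitinib and 5.92% of 152 vehicle endothelial cells, at medians of 6493 and 7594 UMIs, held 3 or more, and the highest held 32 and 13. Summed Sfrp2 was 111 CPM in sunitinib and 60.7 CPM in vehicle endothelial cells, a log2 ratio of 0.88 (0.51 to 1.25), which has the opposite sign to the ratio in smooth muscle. How much of the Sfrp2 in either cell type was free RNA was not tested. Of the 3 cell barcodes shared by the sunitinib and vehicle libraries, 0 belonged to Sfrp2 cells.

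**Figure D1:**
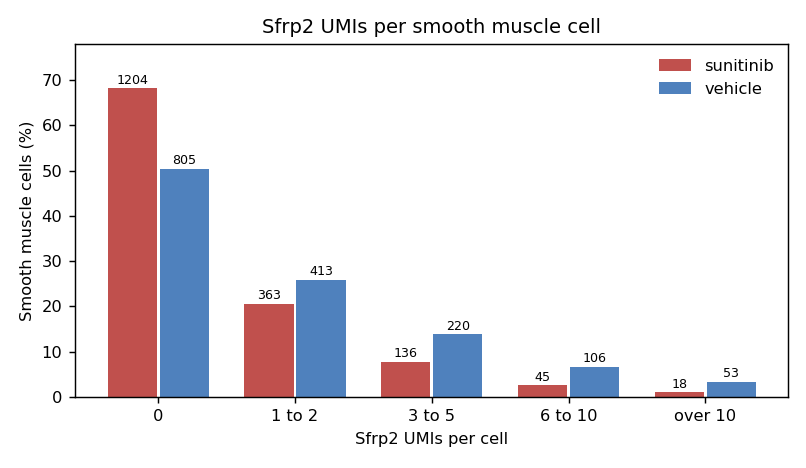
Share of smooth muscle cells (y axis, %) by their number of Sfrp2 UMIs (x axis) in the sunitinib library (left bars) and the vehicle library (right bars), with the number of cells above each bar. The shares fall without a gap from 0 UMIs to over 10, and every bar from 1 UMI on is lower for sunitinib, with 18 sunitinib and 53 vehicle cells over 10 UMIs.

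Of the other markers proposed for these cells, Sost and Itga8 did not separate them from the remaining smooth muscle, and Adamtsl1 was higher in them but barely detected. Sost, a secreted Wnt antagonist, had 740 CPM in Sfrp2 cells and 724 CPM in Sfrp2-0 cells of the sunitinib library, and 935 and 895 CPM in those of the vehicle library. Itga8, an integrin alpha chain, had 1729 and 1604 CPM in the sunitinib library and 1639 and 1564 CPM in the vehicle library. Both genes were found at nearly the same level in either class, with log2 ratios between 0.03 and 0.11. Adamtsl1, an ADAMTS-like matrix protein, had 12 UMIs in sunitinib and 7 in vehicle Sfrp2 cells, against 6 and 3 UMIs in Sfrp2-0 cells. That is 2.86 against 0.34 CPM in the sunitinib library, a log2 ratio of 3.07 (1.55 to 4.77), and 0.82 against 0.22 CPM in the vehicle library, 1.87 (-0.27 to 4.45). Of the 12 UMIs, 50% lay in 1 cell, and 2.01% of sunitinib and 1.32% of vehicle Sfrp2 cells held any.

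By their median, contractile genes were at like levels in both classes, and cells of either class had to pass the same contractile minimum. How far that minimum set the likeness was not tested. All 27 contractile genes of a fixed list were measured, and 0 were 1.5-fold higher or lower in Sfrp2 cells in both libraries. Over all genes, 0.869% were higher and 0.346% lower, so a count of 0 among 27 is no result by itself. Their median log2 ratio was -0.03 in the sunitinib library and -0.06 in the vehicle library, beside 0.03 and 0.04 over all genes. Summed, the 27 had 36178 CPM in Sfrp2 cells against 38527 CPM in Sfrp2-0 cells of the sunitinib library. In the vehicle library the sums were 32052 and 33913 CPM. At the low end, Des had -0.002 in the sunitinib library and -0.69 (-0.83 to -0.56) in the vehicle library. Tpm2 had -0.21 and -0.23. At the high end, Svil had 0.36 and 0.22, and Actg2 0.30 and 0.20. Lmod1, an actin-nucleating leiomodin that the rule did not use, had 1222 and 1169 CPM in Sfrp2 and Sfrp2-0 cells of the sunitinib library and 919 and 923 CPM in those of the vehicle library. The finer name of the cells rests on Sfrp2. Of 20 measured calcium and potassium handling genes, 1 was lower, beside 0.346% of all genes. This was Pln, the inhibitor of the sarcoplasmic calcium pump. It had 3.58 against 7.94 CPM in the sunitinib library and 8.998 against 14.7 CPM in the vehicle library, with log2 ratios of -1.15 and -0.71, and -0.44 in the vehicle library without the cell of each class that held most of it.

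Relative to Sfrp2-0 cells, Sfrp2 cells had higher levels of a small set of transcription factor, membrane and matrix genes in both libraries, and lower levels of posterior Hox genes and of several signalling and membrane genes. A gene was counted where its log2 ratio of CPM passed 1.5-fold the same way in both libraries, with at least 50 UMIs in each. Of 10130 genes measured in both, 88 (0.869%) were higher and 35 (0.346%) were lower. Sfrp2 itself is 1 of the 88 by the choice of cells. With normalization by the trimmed mean of M-values (TMM) in place of the UMI total, the counts were 70 higher and 45 lower. Within single libraries, 3.38% of genes were higher and 2.73% lower for sunitinib, and 2.73% higher and 1.32% lower for vehicle. Among genes measured in both, the 88 shared genes made up 28.4% of the 310 higher in the sunitinib library and 35.6% of the 247 higher in the vehicle library. The 35 made up 15.2% of 230 and 28.5% of 123 lower genes. Most genes past the fold in 1 library were therefore not past it in the other.

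Hand2 and Prrx2 were the transcription factor genes among the 12 highest. Hand2, the outflow tract and branchial arch factor, had 37.9 CPM in Sfrp2 cells and 17.1 CPM in Sfrp2-0 cells of the sunitinib library, and 39.5 and 18.0 CPM in those of the vehicle library. Its log2 ratios were 1.15 (0.86 to 1.43) and 1.14 (0.89 to 1.38), and it was detected in 30.7% and 36.9% of Sfrp2 cells, against 11.7% and 14.4% of Sfrp2-0 cells. Hand2 shares its locus with the opposite-strand transcript Hand2os1, which was also past the fold, and no source used here states if counting used strand. Prrx2, a paired-related homeobox factor of craniofacial and limb mesenchyme, had 16.2 against 5.39 CPM in the sunitinib library and 12.2 against 4.94 CPM in the vehicle library, with log2 ratios of 1.59 and 1.30. The next factor, Aff3, a nuclear protein of the AF4 family, had ratios of 1.10 and 1.06.

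The remaining 9 of the 12 were membrane, matrix and signalling genes. Kcnj15, an inwardly rectifying potassium channel, had 68.5 CPM in Sfrp2 cells and 25.2 CPM in Sfrp2-0 cells of the sunitinib library, and 53.1 and 22.2 CPM in those of the vehicle library. Ace, the enzyme that makes angiotensin II, had 87.3 against 42.8 CPM in the sunitinib library and 96.2 against 44.5 CPM in the vehicle library. Ace was the most widely detected of the 12, in 69.8% and 72.3% of Sfrp2 cells, against 37.9% and 42.2% of Sfrp2-0 cells. Lamc3, a laminin gamma chain of basement membranes, had log2 ratios of 1.08 in both libraries, and Itga4, an integrin alpha chain that binds fibronectin and VCAM1, 1.33 and 1.13. The rest were Plscr4, a phospholipid scramblase (1.38 and 2.02), Smim3, a small membrane protein (1.19 and 1.51), Ptgfrn, a membrane partner of tetraspanins (1.04 and 1.08), Prex2, an exchange factor for Rac (1.23 and 1.04), and Dlgap1, a scaffold protein of synapses (1.01 and 1.34). The interval of each of the 12 excluded 0 in both libraries. The genes were ranked by these same ratios, so the intervals give no separate support. Plscr4 rested on the fewest UMIs in vehicle Sfrp2-0 cells, with 27.

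**Figure D2:**
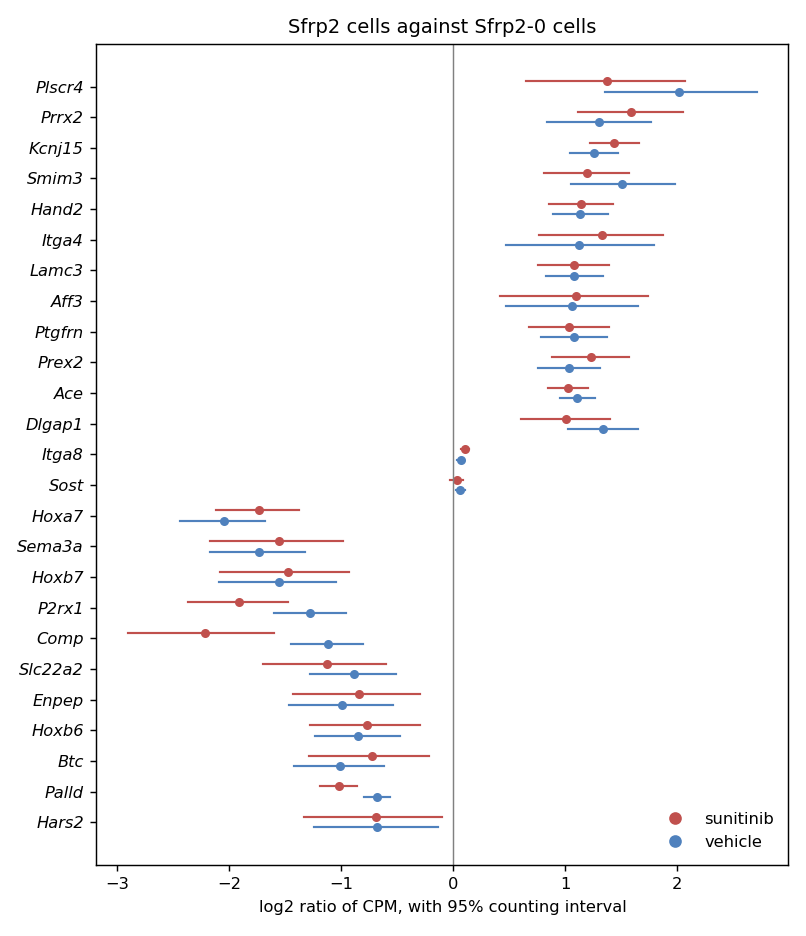
Log2 ratio of CPM in Sfrp2 cells over Sfrp2-0 cells (x axis) for the 12 highest genes, the markers Itga8 and Sost, and 11 of the 12 lowest genes (y axis), with the sunitinib library above the vehicle library for each gene and 95% counting intervals as lines. The 12 highest lie at 1.01 or above in both libraries, both markers lie near 0, and Hoxa7 is the lowest in the vehicle library at -2.05.

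The lowest genes were led by Hox genes. Hoxa7 had 16.0 CPM in Sfrp2 cells and 53.3 CPM in Sfrp2-0 cells of the sunitinib library, and 7.95 and 32.9 CPM in those of the vehicle library. Its log2 ratios were -1.74 (-2.12 to -1.38) and -2.05 (-2.44 to -1.68). Hoxb7 (-1.48 and -1.55) and Hoxb6 (-0.77 and -0.85) stood beside it among the 12.

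Several of the other lowest genes act in signalling to and from smooth muscle. Sema3a, a secreted guidance protein for axons and vessels, had 6.44 CPM in Sfrp2 cells against 18.9 CPM in Sfrp2-0 cells of the sunitinib library, and 6.66 against 22.1 CPM in the vehicle library. P2rx1, the ATP-gated channel through which sympathetic nerves contract smooth muscle, had 10.97 against 41.2 CPM in the sunitinib library and 12.3 against 29.7 CPM in the vehicle library. Both genes were about as low in Sfrp2 cells of one library as of the other, and P2rx1 differed more in the Sfrp2-0 cells. Btc, a ligand of the EGF receptor, had ratios of -0.73 and -1.02. Enpep, the aminopeptidase that shortens angiotensin II, had -0.84 and -0.99, the opposite sign to Ace. Within cells that held a UMI of a posterior Hox gene, a split described below, Enpep had 0.16 (-0.52 to 0.79) and -0.18 (-0.81 to 0.41).

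Slc22a2, an organic cation transporter, had log2 ratios of -1.13 in the sunitinib library and -0.88 in the vehicle library. Palld, an actin-bundling protein, had 80.9 CPM in Sfrp2 cells against 164 CPM in Sfrp2-0 cells of the sunitinib library and 105 against 168 CPM in the vehicle library. Comp, a cartilage matrix protein, had the widest gap between libraries, with ratios of -2.22 and -1.12, and 22.7% of its 22 UMIs in sunitinib Sfrp2 cells lay in 1 cell. Hars2, a mitochondrial tRNA synthetase that overlaps Hars on the other strand, closed the 12 with -0.69 and -0.68. The intervals of the 11 genes named here lay below 0 in both libraries, but these genes too were ranked by the same ratios.

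The Hox genes differed by their place in the cluster. Each Hox gene carries a paralogue number that runs from the anterior to the posterior end. Summed over all 24 Hox genes with numbers 6 to 13, with no minimum, Sfrp2 cells had 37.2 CPM against 102 CPM in Sfrp2-0 cells of the sunitinib library, and 26.4 against 77.9 CPM in the vehicle library. The sum over the 15 genes with numbers 1 to 5 was 141 against 154 CPM and 138 against 152 CPM. Of the 24, Hoxa7, Hoxb6, Hoxb7 and Hoxb8 reached the minimum of 50 UMIs and were past 1.5-fold, but they reached it mostly through Sfrp2-0 cells, so their count carries no weight. Hoxb8 had 12 UMIs in Sfrp2 cells against 100 in Sfrp2-0 cells of the sunitinib library, and 20 against 87 in the vehicle library. Its log2 ratios of CPM were -0.99 (-1.99 to -0.12) and -1.48 (-2.26 to -0.76). Hoxb2 had 39.8 CPM in Sfrp2 cells against 44.9 CPM in Sfrp2-0 cells of the sunitinib library, and 40.2 against 49.7 CPM in the vehicle library. Hoxc6, below the minimum, had 4 UMIs in sunitinib and 4 in vehicle Sfrp2 cells, against 54 and 42 UMIs in Sfrp2-0 cells. The log2 ratios of its CPM were -1.68 (-3.61 to -0.24) and -2.75 (-4.69 to -1.29).

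**Figure D3:**
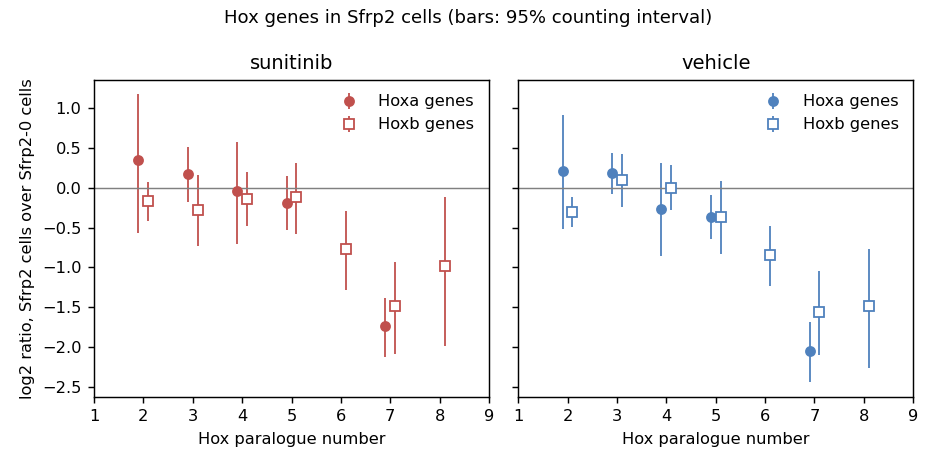
Log2 ratio of CPM in Sfrp2 cells over Sfrp2-0 cells (y axis) for the 12 measured Hox genes by paralogue number (x axis), with the sunitinib library on the left and the vehicle library on the right. Filled circles are Hoxa genes, open squares are Hoxb genes and bars are 95% counting intervals. Genes with numbers 1 to 5 lie between -0.37 and 0.34 and those with numbers 6 to 8 between -2.05 and -0.77.

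Counted by cell, 28.6% (22.5 to 35.5) of sunitinib and 23.2% (19.1 to 27.8) of vehicle Sfrp2 cells held any UMI of a Hox gene numbered 6 to 13, against 53.7% (50.8 to 56.5) and 51.6% (48.0 to 55.1) of Sfrp2-0 cells. Thinned to 5000 UMIs, the shares were 12.6% and 10.6% in Sfrp2 cells and 34.8% and 26.6% in Sfrp2-0 cells. Sfrp2 cells were thus the poorer class at equal depth in both libraries, although they were the deeper class.

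The libraries also differed in this Hox share, and the share of Sfrp2 cells was therefore set out within each kind of cell. Of all smooth muscle cells, 47.8% (45.4 to 50.2) in the sunitinib library and 39.8% (37.4 to 42.3) in the vehicle library held such a UMI. Among those with one, 6.75% (5.15 to 8.66) of sunitinib and 13.8% (11.2 to 16.8) of vehicle cells were Sfrp2 cells. Among those without, the shares were 15.4% (13.1 to 17.9) and 30.3% (27.4 to 33.3). The sunitinib share was the lower one in either kind of cell.

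The same split was made for the named genes. Of the 12 highest genes, 6 were past 1.5-fold with and without such a Hox UMI in both libraries, and 6 (Smim3, Hand2, Itga4, Ptgfrn, Prex2 and Dlgap1) were not in at least 1 of these 4 sets of cells. Some intervals of the first 6 spanned 0 in cells with such a UMI. Plscr4 had 0.76 (-1.26 to 2.37) there in the sunitinib library. Aff3 had 1.06 (-0.19 to 2.16) in the sunitinib library and 0.92 (-0.36 to 2.11) in the vehicle library. Ace had log2 ratios of 0.99 and 1.16 in cells with such a Hox UMI and of 0.95 and 0.98 in cells without, giving the sunitinib library and then the vehicle library. P2rx1 had -1.81 and -0.67 with, and -1.59 and -1.32 without. Hand2 was far lower in cells with a posterior Hox UMI, at 7.75 CPM in sunitinib and 7.70 CPM in vehicle Sfrp2 cells, against 53.4 and 50.6 CPM in Sfrp2 cells without one. Within cells with one, the Hand2 ratio of Sfrp2 to Sfrp2-0 cells was 1.64 (0.48 to 2.70) in the sunitinib library and 1.27 (0.28 to 2.23) in the vehicle library. Within cells without one, the ratio of Sfrp2 to Sfrp2-0 cells was 0.40 (0.10 to 0.69) in the sunitinib library and 0.45 (0.20 to 0.71) in the vehicle library. Itga4 in vehicle cells without one had 0.36 (-0.38 to 1.11), Smim3 in vehicle cells with one 0.45 (-0.56 to 1.38), and Ptgfrn in sunitinib cells without one 0.49 (0.04 to 0.92). In cells without a posterior Hox UMI, 49 genes were higher and 13 lower in both libraries.

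Among secreted Wnt antagonists other than Sfrp2, 8 of 17 were measured and 2 were higher, beside 0.869% of all genes, with medians of 0.34 in the sunitinib library and 0.36 in the vehicle library. Frzb, also called Sfrp3, had 7.63 CPM in Sfrp2 cells against 4.03 CPM in Sfrp2-0 cells of the sunitinib library, and 9.35 against 5.99 CPM in the vehicle library. In the sunitinib library 34.4% of the 32 Frzb UMIs lay in 1 cell, and without the cell of each class with most Frzb the ratio there was 0.42 (-0.36 to 1.15) in place of 0.92. Sfrp1, a family member that also binds Wnt ligands, had 3.58 against 7.54 CPM in the sunitinib library, a ratio of -1.08, and 9.23 against 7.26 CPM in the vehicle library, where 50.6% of its 79 UMIs in Sfrp2 cells lay in 1 cell. Igfbp4, a secreted binder of insulin-like growth factors that also inhibits Wnt receptors, had 47.7 against 23.3 CPM in the sunitinib library and 54.0 against 31.4 CPM in the vehicle library. Of 6 ligand genes, 14 receptor genes and 20 transduction genes measured, 0 were past the fold in both libraries, and of 7 target genes 1 was, Myc (0.95 and 0.64). At shares of 0.869% and 0.346% over all genes, a count of 0 among so few is no result about the pathway. Wnt9a, a ligand, had 0.68 and 0.39, and Fzd6, a receptor, 0.49 and 0.41.

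Matrix genes were mixed, and the counts below stand beside 0.869% higher and 0.346% lower of all genes. Mfap4, a microfibril-associated protein of elastic fibres, had 654 CPM in Sfrp2 cells against 349 CPM in Sfrp2-0 cells of the sunitinib library, and 589 against 316 CPM in the vehicle library. It was the 1 of 18 measured elastic fibre genes past the fold, and the medians of that list were 0.38 and 0.31. Of 20 collagens, Col14a1, a fibril-associated collagen, was the 1 higher gene, with ratios of 1.05 and 0.97. Of 31 proteoglycan and matricellular genes, Aspn (1.54 and 0.95) and Igfbp4 were higher and Comp and Tnc (-0.60 and -0.62) were lower. Of 22 integrin and adhesion genes, Itga4 and Itgb8 (1.34 and 1.55), an activator of latent TGF-beta, were higher and 0 were lower. Of 20 BMP pathway genes, Bmp3, a BMP family ligand, was the 1 higher gene (0.87 and 0.71), and 0 of 19 TGF-beta pathway genes were past the fold. Sunitinib's target kinases were measured for 2 of 9 genes, Pdgfrb (0.43 and 0.33) and Flt1 (0.77 and 0.39), and 0 of them passed the fold in both libraries.

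An antisense gene at the Sfrp2 locus was also higher in Sfrp2 cells. Gm26771 lies on the minus strand at chr3:83773853-83789956 in GENCODE vM21 (GRCm38) and overlaps the end of Sfrp2, which lies on the plus strand at chr3:83766321-83774316. It was chosen after its values were seen. It had 26.7 CPM in Sfrp2 cells against 2.50 CPM in Sfrp2-0 cells of the sunitinib library, and 23.6 against 2.39 CPM in the vehicle library. Reads of the 2 genes may not be told apart where they overlap.

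Markers of other cell types were counted beside these differences. Summed over 15 fibroblast markers, Sfrp2 cells had 2669 CPM against 2024 CPM in Sfrp2-0 cells of the sunitinib library, and 2756 against 2125 CPM in the vehicle library, with a median log2 ratio of 0.41 and 0.38 over the 5 measured. The sum held 13 of 15 genes above 0 in Sfrp2 cells of either library. Of the defining fibroblast genes, Dpt had 0 UMIs in sunitinib and 1 in vehicle Sfrp2 cells, and Pdgfra had 26 and 16 UMIs, against 62 and 24 in Sfrp2-0 cells. The Sfrp2 cells summed to 4192649 UMIs in the sunitinib and 8557168 in the vehicle library, against 17632048 and 13367386 in Sfrp2-0 cells. Per UMI, Pdgfra was therefore higher in Sfrp2 cells of the sunitinib library and near level in the vehicle library. Of the measured markers, Mfap5 had log2 ratios of 0.77 and 0.54, Col1a2 0.35 and 0.39, and Gsn 0.19 and 0.23. These stayed above 0 without the cell of each class that held most of the gene. Dcn had 35 and 62 UMIs in Sfrp2 cells against 17 and 133 in Sfrp2-0 cells, with log2 ratios of 3.11 and -0.46, and 60.0% and 30.6% of its UMIs in Sfrp2 cells lay in 1 cell. Lum had 30 and 21 UMIs against 0 and 16, with 80.0% and 66.7% in 1 cell. In sunitinib and vehicle Sfrp2 cells, macrophage markers summed to 2.15 and 1.75 CPM with Ptprc at 0, and Schwann cell markers to 3.34 and 3.16 CPM. Endothelial markers summed to 84.7 CPM against 108 CPM in the sunitinib library and 113 against 96.3 CPM in the vehicle library. The vehicle ratios depended on single cells. Without the cell of each class with most of the gene, Pecam1 went from 0.22 to -0.10, Egfl7 from 0.53 to -0.35 and Ptprb from 0.59 to -0.80. Erg went from 0.12 to 0.08. Without the 19 sunitinib and 37 vehicle Sfrp2 cells, and the 36 and 57 Sfrp2-0 cells, that held 3 or more UMIs of such markers, 83 genes were higher and 38 lower in both libraries. What the remaining fibroblast signal contributes was not tested.

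Across the range of Sfrp2 UMIs, Mfap4 and Col14a1 were highest in the bin with most Sfrp2. Hand2 was higher in every bin with Sfrp2 than in the bin with 0, but was highest at 3 to 5 UMIs. Mfap4 had 349, 487, 549, 846 and 929 CPM in sunitinib cells with 0, 1 to 2, 3 to 5, 6 to 10 and over 10 Sfrp2 UMIs. It had 316, 436, 525, 625 and 736 CPM in the same bins of the vehicle library. Col14a1 had 35.5, 48.0, 53.9, 73.0 and 113 CPM in the vehicle bins, and 29.4 CPM in the lowest and 108 CPM in the highest sunitinib bin. Hand2 had 17.1, 34.0, 41.1, 34.2 and 25.3 CPM in the sunitinib bins, where it was lower again at the top, and 18.0, 35.0, 40.7, 37.1 and 39.6 CPM in the vehicle bins. Hoxa7 ran the other way, with 32.9, 20.9, 9.37, 8.34 and 2.73 CPM in the vehicle bins. In the sunitinib bins it had 53.3, 26.5, 15.6, 16.0 and 18.4 CPM, so there it was level from 3 UMIs on. The fibroblast marker sum moved with the bins too, at 2024 CPM in the lowest and 3636 CPM in the highest sunitinib bin, and 2125 and 3441 CPM in those of the vehicle library. The endothelial marker sum was 289.8 CPM in the highest vehicle bin, against 69.4 to 105 CPM in the other vehicle bins. The part of either cell type in these values was not tested. The highest sunitinib bin holds 18 cells, among them the cell with 92 Sfrp2 UMIs, which also holds 25.9% of the Gm26771 UMIs and 50% of the Adamtsl1 UMIs of sunitinib Sfrp2 cells.

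**Figure D4:**
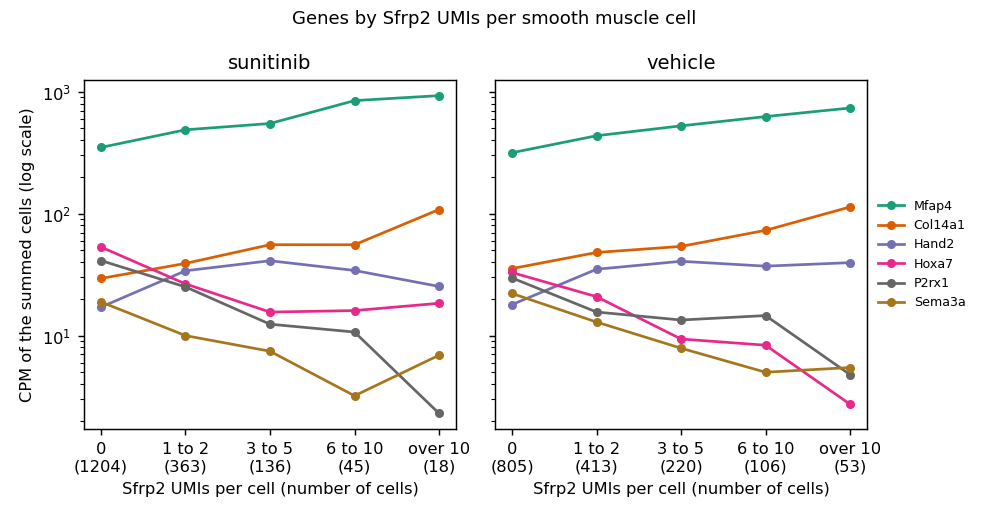
CPM of the summed cells (y axis, log scale) for 6 genes by the number of Sfrp2 UMIs per cell (x axis, number of cells in brackets), with the sunitinib library on the left and the vehicle library on the right. Mfap4 and Col14a1 are highest in the cells with most Sfrp2, Hand2 is level from 1 to 2 UMIs on in the vehicle library and lower again, at 25.3 CPM, in the top sunitinib bin, and Hoxa7 falls to 2.73 CPM in the top vehicle bin of 53 cells.

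Between treatments, Sfrp2 cells of the sunitinib library had lower levels of 12 of 25 immediate early, 10 of 15 heat shock and 4 of 9 inflammatory genes, and higher levels of genes led by Arrdc2, Grap and Slc25a33. Of 9509 genes with at least 50 UMIs over the 2 libraries, 608 (6.39%) were 1.5-fold higher and 422 (4.44%) were lower in sunitinib Sfrp2 cells. In Sfrp2-0 cells of the same libraries, 6.65% were higher and 3.4% lower. With TMM the counts in Sfrp2 cells were 453 higher and 547 lower, so the balance of directions depends on the scaling. Both classes come from the same 2 libraries, and their values are set side by side below.

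The immediate early genes are switched on fast after a stimulus, and many of them encode transcription factors. All 25 were measured, and 12 were lower and 0 higher in sunitinib Sfrp2 cells, with a median log2 ratio of -0.54, and -0.52 in Sfrp2-0 cells, beside 0.06 and 0.08 over all genes. Fosl1, an AP-1 subunit, had 5.25 CPM in sunitinib and 23.6 CPM in vehicle Sfrp2 cells, and 4.42 and 16.4 CPM in Sfrp2-0 cells. Myc, the growth-regulating factor, had 17.2 CPM in sunitinib and 62.3 CPM in vehicle Sfrp2 cells, a log2 ratio of -1.86, and -2.17 in Sfrp2-0 cells. Of 15 heat shock genes, 10 were lower and 0 higher, with a median of -0.65, and -0.70 in Sfrp2-0 cells. Hspa1a, the inducible HSP70, had 328 CPM in sunitinib and 701 CPM in vehicle Sfrp2 cells. Both groups of genes were thus lower in Sfrp2-0 cells by like amounts.

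Inflammatory genes were less uniform. Of 9 measured, 4 were lower and 0 higher, with a median of -0.24 in Sfrp2 cells and -0.61 in Sfrp2-0 cells, and Csf1, a macrophage growth factor, had 0.33 and 0.37. The 4 were Cxcl1, a neutrophil chemokine, Tnfaip3 and Nfkbia, inhibitors of NF-kappaB signalling, and Irf1, an interferon-response factor. Irf1 had 18.6 CPM in sunitinib and 66.3 CPM in vehicle Sfrp2 cells, a ratio of -1.83 (-2.19 to -1.49), and -1.77 in Sfrp2-0 cells. Cxcl1 had 2.62 and 21.2 CPM in Sfrp2 cells, the lowest ratio of all the named genes at -3.01 (-4.04 to -2.14), but rested on 11 UMIs in the sunitinib library, of which 54.5% lay in 1 cell. Tnfaip3 had -2.37 (-3.74 to -1.26) in Sfrp2 cells and -0.94 in Sfrp2-0 cells.

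The other lowest genes were Zdbf2, an imprinted gene (-2.10 in Sfrp2 cells and -0.38 in Sfrp2-0 cells), Mob3c, a kinase adaptor (-1.97 and -1.37), Trib2, a pseudokinase (-1.87 and -1.0), Phlda1, a growth factor-induced protein (-1.84 and -1.30), and Bcl3, a partner of NF-kappaB (-1.84 and -1.60). Zdbf2 had 8 UMIs in sunitinib and 70 in vehicle Sfrp2 cells. The difference between the classes in Zdbf2 or Tnfaip3 was not tested, since each class has 1 library per treatment.

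On the higher side, Dbp, a transcription factor under control of the circadian clock, had 134 CPM in sunitinib and 47.2 CPM in vehicle Sfrp2 cells, and 120 and 49.3 CPM in Sfrp2-0 cells. Tsc22d3, which encodes the glucocorticoid-induced protein GILZ, had 31.0 and 10.3 CPM in Sfrp2 cells, and 30.5 and 16.8 CPM in Sfrp2-0 cells. The time of day at which each tissue was taken is not given in the labels. Slc25a33, a mitochondrial carrier of pyrimidine nucleotides, had 69.9 and 17.7 CPM in Sfrp2 cells, and 52.2 and 17.2 CPM in Sfrp2-0 cells. It was detected in 64.3% of sunitinib and 29.6% of vehicle Sfrp2 cells.

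The remaining genes of the 10 highest each had under 15 CPM. They were Arrdc2, an arrestin-domain protein (2.17 in Sfrp2 cells and 1.74 in Sfrp2-0 cells), Grap, a GRB2-related adaptor (2.03 and 1.67), Lefty1, an inhibitor of Nodal signalling (1.94 and 0.82), Cln3, a lysosomal membrane protein (1.59 and 0.08), Tmem86a, an ether-lipid hydrolase (1.53 and 1.51), Isoc2a (1.52 and 1.15) and Zfp994, a zinc finger protein (1.49 and 0.88). Grap overlaps Slc5a10, Dbp overlaps Sphk2 and Cln3 overlaps Apobr on the other strand. The interval of Cln3 in Sfrp2-0 cells spans 0 (-0.45 to 0.62), and that in Sfrp2 cells runs 0.79 to 2.42.

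**Figure D5:**
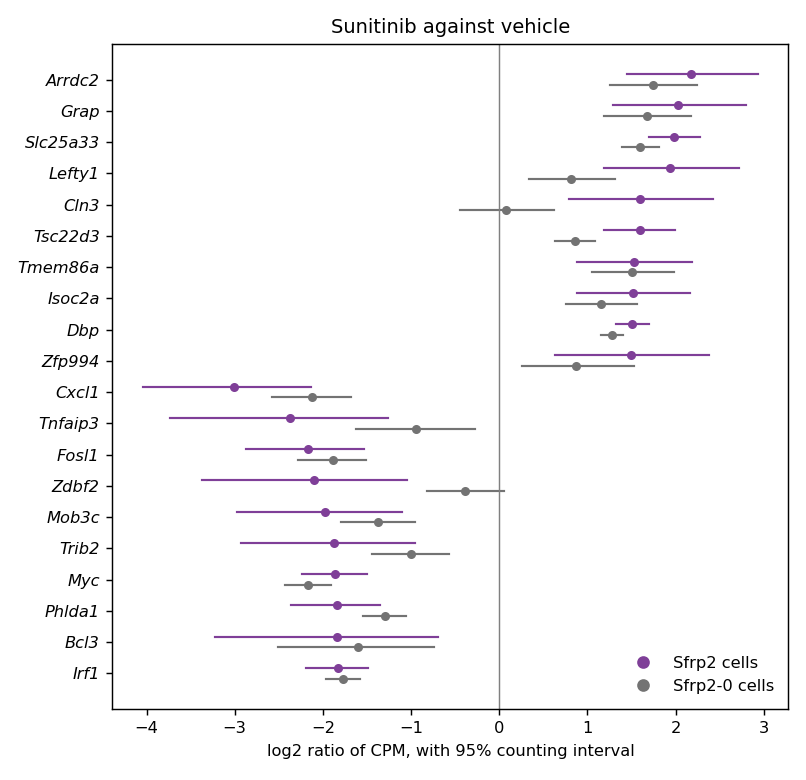
Log2 ratio of CPM in the sunitinib library over the vehicle library (x axis) for the 10 highest and 10 lowest genes in Sfrp2 cells (y axis), with Sfrp2 cells above Sfrp2-0 cells for each gene and 95% counting intervals as lines. The 2 classes have the same sign for all 20 genes, and their points lie farthest apart for Zdbf2 (-2.10 and -0.38), Cln3 (1.59 and 0.08) and Tnfaip3 (-2.37 and -0.94).

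Of the 12 genes highest in Sfrp2 cells, 10 differed by less than 1.5-fold between treatments within those cells. Over all genes measured, 6.39% were 1.5-fold higher and 4.44% lower, so this count is no result about the 12. Hand2 had a sunitinib to vehicle log2 ratio of -0.06 (-0.34 to 0.22), Ace -0.14 (-0.32 to 0.04) and Lamc3 -0.27 (-0.58 to 0.04). Mfap4, which is not among the 12, had 0.15 (0.08 to 0.22). Itga4 was higher at 0.94 (0.33 to 1.55) and Smim3 at 0.71 (0.30 to 1.12), with 0.74 and 1.02 in Sfrp2-0 cells. Hoxa7 was higher in sunitinib cells of both classes, at 1.01 (0.50 to 1.52) and 0.69 (0.53 to 0.86), as was Hoxb7 at 0.60 and 0.53. Of the markers, Itga8 was level at 0.08 and Sost lower by less than 1.5-fold, at -0.34 in Sfrp2 cells and -0.31 in Sfrp2-0 cells. Pdgfrb, a kinase that sunitinib inhibits, had 72.0 CPM in sunitinib and 102 CPM in vehicle Sfrp2 cells, a ratio of -0.51 (-0.70 to -0.32), and -0.61 in Sfrp2-0 cells.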

How the data were processed

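The authors deposited a matrix of unnormalized UMI counts for each of 3 libraries. The counts were made with Cell Ranger 6.0.0 (sunitinib and vehicle) and 7.1.0 (sunitinib with Yoda1), per the file headers. Build mm10, Cell Ranger and Seurat are named per the submitters' processing notes. The annotation and the use of strand are not given in the sources used here. The libraries hold 66769480, 73901343 and 28364203 UMIs.

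Cells were classed by the rule in the report. Endothelial cells had at least 10 marker UMIs per 10000 and under 1% contractile UMIs. No doublet caller was used, and an alternative leaves out cells with UMIs of other cell types. UMIs were summed per class and library and scaled to CPM. A count of 0 was set to 3 UMIs in a ratio. The calculation was checked on simulated counts. TMM factors came from edgeR 4.0.16 (R 4.3.3), and all else used Python 3.11.15 with scipy 1.17.1.

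Named genes are the 12 highest and 12 lowest for Sfrp2 against Sfrp2-0 cells, by the ratio nearer 0 of the 2 libraries, and the 10 highest and 10 lowest for sunitinib against vehicle. At least 10% of cells of the higher class or of 1 library had to hold a UMI. Mitochondrial, ribosomal, haemoglobin, immunoglobulin, sex-linked, unnamed and selection genes were left out. Of the 12 lowest, 1 gene is not reported here. The proposed markers and members of 35 gene lists were named too. The cells, genes and lists were chosen with earlier results of these data known. Coordinates are those of GENCODE vM21 on GRCm38, which mm10 names. Of 32285 gene identifiers, 32158 were in it.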

Additional observations from a re-analysis of the deposited data

Results flagged for a closer look

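The library of sunitinib with Yoda1 was outside every comparison, and Sfrp2 was present in its smooth muscle cells above the limit that a count of 0 allows. There, 17 of 60 smooth muscle cells (28.3%, 17.5 to 41.4) held 3 or more Sfrp2 UMIs, and 12.3% (5.08 to 23.7) of 57 did so at 5000 UMIs. Mfap4 had 484 CPM in its Sfrp2 cells and 85.0 CPM in its 32 Sfrp2-0 cells, and Hoxa7 had 2 against 15 UMIs. Adamtsl1 had 56.6 against 106 CPM there, so it was more abundant than in the other libraries but not higher in the Sfrp2 cells. Itga8 was higher in them, at 1739 against 1094 CPM, a log2 ratio of 0.67 (0.48 to 0.86). Sost had 212 against 232 CPM. This library was counted with another Cell Ranger version and its 60 cells come from 1 capture, so its level cannot be told apart from that difference.

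For 3 members of the gene lists the difference between Sfrp2 and Sfrp2-0 cells passed 1.5-fold in opposite directions in the 2 libraries. The difference between libraries was not tested, and the number of such genes among all those measured is not given here. Ptprb, an endothelial phosphatase, had log2 ratios of -2.41 in the sunitinib library and 0.59 in the vehicle library, with 60.0% of its 10 UMIs in sunitinib Sfrp2 cells and 74.3% of its 113 UMIs in vehicle Sfrp2 cells in 1 cell each, and without the cell of each class with most Ptprb the ratios were -3.39 and -0.80. Timp1, a metalloproteinase inhibitor, had 0.70 and -1.05, with 72.4% of its 591 UMIs in vehicle Sfrp2-0 cells in 1 cell, and 0.67 and 0.56 without such cells. Actc1, cardiac actin, had 1.34 and -0.73, and the cell with most held 37.5% to 45.8% of its UMIs in each of the 4 sums.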

How the results depend on the processing

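No paired analysis was possible because each group is 1 library. The share of Sfrp2 cells stayed lower for sunitinib under every alternative run. It was 18.5% in the sunitinib and 34.0% in the vehicle library from 2 UMIs, 4.64% and 12.8% from 5 UMIs, 2.14% and 5.41% in thinned cells, 13.2% and 25.2% in cells of at least 10000 UMIs, and 10.8% and 21.3% with no Rgs5 limit. Genes higher in Sfrp2 cells in both libraries numbered 206 with no Rgs5 limit, 49 in cells with no posterior Hox UMI, and 185 and 35 with gene minimums of 20 and 200 UMIs, against 88. Lower genes numbered 60, 13, 95 and 14 under the same settings and 62 from 5 Sfrp2 UMIs, against 35. For sunitinib against vehicle, the minimum of 20 UMIs gave 1014 higher genes and that of 200 gave 135 higher and 219 lower, against 608 and 422. Counts of genes scale with the number of genes measured, and the cause of the other shifts was not tested. Within cells with a posterior Hox UMI, the ratio of Sfrp2 to Sfrp2-0 cells changed sign for Enpep in the sunitinib library (0.16) and for Hoxb6 in both (0.092 in sunitinib and 0.28 in vehicle). Hoxb6 is itself among the genes that select those cells. The ratio of Sost, near 0 in both libraries, fell below 0 in the sunitinib library from 5 Sfrp2 UMIs and within cells with a posterior Hox UMI, and in both libraries within cells with none. No other ranked gene or marker changed sign under any alternative run. Requiring, as a setting added after the data were seen, that intervals exclude 0 left 74 higher and 24 lower genes between classes, and 500 and 363 between treatments. Without the cell that holds most UMIs of a gene, also added afterwards, 0 ratios of the ranked genes and markers moved past their interval. Among 102 further listed genes 16 ratios did. Of these, 2 turned sign with an interval that excluded 0 before and after, those of Ptprb (-0.80) and Timp1 (0.56) in the vehicle library. Depth limits Adamtsl1, with 7 to 12 UMIs in Sfrp2 cells, and Hox genes under the minimum. TMM lowered every ratio by 0.03 to 0.09.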

Other observations

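Some further genes past 1.5-fold in both libraries were noticed after their values were seen and lie outside the rule for named genes. Apoe, a lipid-carrying apolipoprotein, had 119 CPM in Sfrp2 cells against 56.1 CPM in Sfrp2-0 cells of the sunitinib library, and 136 against 71.4 CPM in the vehicle library, with 15.5% and 19.4% of the UMIs in Sfrp2 cells in 1 cell. Smoc2, a matricellular protein, had log2 ratios of 0.93 and 1.55, and Mdk, the heparin-binding growth factor midkine, 1.61 and 1.30. Fst, which encodes the activin and BMP binder follistatin, had 1.42 and 1.28, with 40.0% of its 30 UMIs in sunitinib Sfrp2 cells in 1 cell. Krt18, a keratin of simple epithelia, had 0.94 and 1.95, with 44.7% of its 365 UMIs in vehicle Sfrp2 cells in 1 cell.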
